A study of Mus musculus with 6 samples.

Results

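Depilation-only sites are places where a Grhl3 peak was called in epidermis of adult mice at day 4 of depilation and in no other Grhl3 library of the series. They were chosen from the deposited peak lists. An autosomal depilation peak counted as depilation-only when no peak of the imiquimod list and no peak of either E16.5 list overlapped it by 1 bp or more. A window near 3 Mb on chromosome 9 was left out, whose 40 depilation peaks lie between 2999986 and 3038330 on mm9. The rule kept 2082 of 4709 autosomal depilation peaks outside that window, or 44.2% (exact 95% binomial interval 42.8 to 45.6, counting error only). The whole depilation list holds 4820 peaks, and the 4 lists together hold 34098. Presence in the lists chose these sites, so their absence from the other lists is a definition and is not tested.

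Grhl3 belongs to the grainyhead-like transcription factors, which bind DNA through a conserved domain and act in surface epithelia from insects to mammals. In mouse skin it is known for switching on genes of the epidermal barrier late in gestation, among them genes of lipid processing and of the cornified envelope. Depilation pulls hair from the skin, which injures the surface epithelium and also sets off new hair growth. Imiquimod activates Toll-like receptors and causes a psoriasis-like inflammation.

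The series mapped Grhl3 binding by ChIP-seq, the sequencing of DNA that an antibody pulls down with a protein, here with a custom antibody to Grhl3. The groups are 1 library of depilated adult epidermis at day 4, 1 library of imiquimod-treated adult epidermis and 2 replicates of whole skin from E16.5 embryos. Dispase was used to lift the adult epidermis off the dermis, whereas the embryonic samples were taken as whole skin. The labels do not give strain, sex, number of animals or any pooling, nor a time point for imiquimod. No Grhl3 library of uninjured adult epidermis was analysed here. Against the embryo, depilation can therefore not be told apart from adult age or from the tissue taken. The 2 adult libraries differ in the injury, and their lists differ in layout and in the range of peak scores. Scores run from 52.35 to 249.45 after imiquimod, where the false discovery rate reaches 10%, and from 50.01 to 3100 after depilation. The depilation list gives no false discovery rate, and whether the 2 lists were cut alike is not known. Each library stands alone, so no difference between them has a replicate check. Read totals are not in the lists, and the depth behind each list is unknown. A site missing from a list is a place with no peak above that list's threshold, which does not show that Grhl3 was absent there.

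The other lists were larger than the depilation list. They held 7974 peaks after imiquimod, 11619 in E16.5 replicate 1 and 9685 in E16.5 replicate 2. Peaks in no other list were common throughout the series. The same rule kept 69.8% of autosomal imiquimod peaks (5539 of 7940), 57.3% of E16.5 replicate 1 peaks (6555 of 11432) and 56.1% of E16.5 replicate 2 peaks (5308 of 9462). The share of 44.2% after depilation was the lowest of the 4. The lists also differ in the number of other peaks to meet, and its part in these shares was not tested. These shares depend on the threshold and depth of each list and were not compared by a test.

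Depilation-only sites were mostly weak peaks, where weak and strong refer to the score alone. The score that the authors gave each peak starts just above 50 in this list, and the labels do not say what quantity it is. The median score of the depilation-only sites was 56.2 (interquartile range 52.8 to 61.8, lowest 50.0, highest 181.7). The other autosomal depilation peaks had a median of 69.5 (interquartile range 58.1 to 89.2) and reached 3100. Of the depilation-only sites, 895 scored under 55, or 43.0% (40.8 to 45.1). A score of 75 or more was found at 138 of them, or 6.63% (5.60 to 7.78), against 1101 other depilation peaks, or 41.9% (40.02 to 43.8). A score of 100 or more was found at 23 sites, or 1.10% (0.702 to 1.65), against 449 other depilation peaks, or 17.1% (15.7 to 18.6). Score and presence in a second list come from related calls, so these values describe the sites and test nothing.

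Seen from the score, the share of depilation peaks found nowhere else was smaller in each higher band. It was 66.9% (64.3 to 69.4) of the 1338 peaks scoring 50 to under 55, and 57.4% (54.3 to 60.5) of the 977 scoring 55 to under 60. It was 45.5% (42.3 to 48.8) from 60 to under 70, and 23.6% (19.9 to 27.7) from 70 to under 80. Above these, it was 12.9% (10.1 to 16.1) from 80 to under 100, 5.14% (3.12 to 7.90) from 100 to under 150, and 3.92% (1.08 to 9.74) of the 102 peaks scoring 150 or more. Among the highest scoring depilation peaks, nearly all were thus also called in embryonic skin or after imiquimod.

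**Figure D1:**
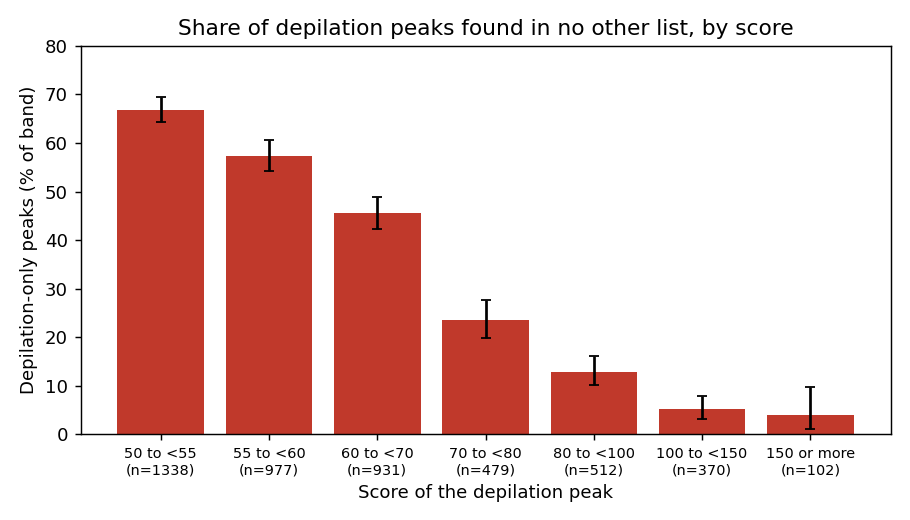
Share of autosomal depilation peaks overlapped by no peak of another list (y axis, percent of the band) in 7 bands of the depilation score (x axis, number of peaks under each bar). Bars are shares and lines are exact 95% binomial intervals. The share is 66.9% in the lowest band and 3.92% in the highest.

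Score and width both ran with the number of lists that shared a peak. Median scores were 56.2 at the 2082 depilation-only sites, 63.6 at the 708 peaks found in 1 other list, 69.5 at the 1191 found in 2 and 76.8 at the 728 found in 3. Median widths were 176 bp, 225.5 bp, 252 bp and 281 bp in the same order. Of the 708 peaks found in 1 other list, 67 were shared with imiquimod, 534 with E16.5 replicate 1 and 107 with E16.5 replicate 2. Their median scores were 64.3, 63.9 and 61.1, so the peaks shared with imiquimod alone or with a single embryo replicate had median scores a few units above the 56.2 of the depilation-only sites. Wide peaks meet other peaks more easily, and this was not adjusted for.

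**Figure D2:**
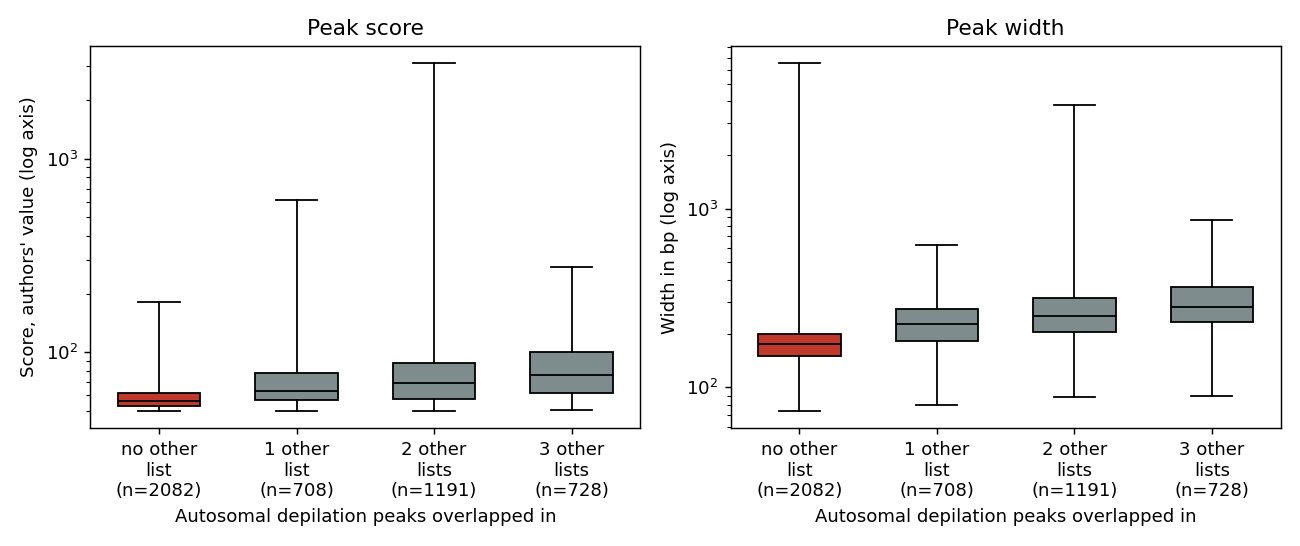
Score (left, log axis, the authors' value) and width in bp (right, log axis) of autosomal depilation peaks, by the number of other lists with an overlapping peak. Boxes show the quartiles and median, and whiskers reach the lowest and highest peak. Depilation-only sites (red) have the lowest median on both axes, 56.2 and 176 bp, and also hold the widest peak, 6512 bp.

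The depilation-only sites were narrow at a given score as well. Their median width was 176 bp (interquartile range 150 to 198), against 252 bp (204 to 319) for the other depilation peaks. In the band from 50 to under 55, depilation-only sites had a median width of 181 bp and other peaks 198 bp. From 60 to under 70 the medians were 170 bp and 241 bp, and from 80 to under 100 they were 184.5 bp and 289.5 bp. In the band of 150 or more, which holds 4 depilation-only sites, the medians were 470 bp and 486 bp. On each of the 19 autosomes the median score and the median width of depilation-only sites were below those of the other depilation peaks. The 19 autosomes come from the same library and are not replicates, and wide peaks meet other peaks more easily. Score and width were also linked among weak depilation-only sites, some of which shared both values. All depilation-only sites that scored 50.04, for example, were 178 bp wide. Narrowness at a given score is therefore not shown to be a trait apart from the score. The part of this link in the band medians was not tested. All depilation-only sites together covered 0.385 Mb, and the other autosomal depilation peaks 0.719 Mb.

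Some of the best scoring depilation-only sites were very narrow. Of the 23 that scored 100 or more, 7 were under 110 bp wide, or 30.4% (13.2 to 52.9). These 7 lay on 7 different autosomes, with widths of 74 to 101 bp and scores of 100.3 to 116. Among the other depilation peaks scoring 100 or more, 1 of 449 was under 110 bp, or 0.223% (0.00564 to 1.23). Below a score of 100 the counts were 78 of 2059 depilation-only sites, or 3.79% (3.01 to 4.71), and 15 of 2178 other peaks, or 0.689% (0.386 to 1.13). The limit of 110 bp was chosen after the widths were seen. The part of input signal in these narrow peaks was not tested, nor was that of a link between score and width.

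The best scoring depilation-only sites, with positions on mm9, lay on several autosomes, 3.39 to 105.2 kb from the nearest peak of another list. Of the 23 depilation-only sites scoring 100 or more, 4 lay before 4 Mb on their chromosome, against 28 of all 2082. Among the other depilation peaks it was 4 of the 449 scoring 100 or more, and 18 of all 2627. Of the 10 best, 2 are on chromosome 18 and are given without positions. They scored 180.1 and 116.0, and their nearest peaks of another list were 3.39 kb away in E16.5 replicate 2 and 51.0 kb away in E16.5 replicate 1. The highest score, 181.7, belonged to a peak of 1633 bp on chromosome 11 at 3065187 to 3066819. Its nearest neighbour in another list, a peak of E16.5 replicate 2 with a score of 55.04, was 29.3 kb away. A peak of 164 bp on chromosome 2, at 181652068 to 181652231, scored 168.1. The nearest imiquimod peak was 70.5 kb from it, and the nearest E16.5 peaks were 245.6 kb away in replicate 1 and 223.3 kb away in replicate 2. A peak of 542 bp on chromosome 13, at 3372146 to 3372687, scored 154.2 and lay 105.2 kb from the nearest peak of another list.

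The remaining 5 scored between 116 and 139.5. On chromosome 10, the peak at 21862119 to 21862806 scored 139.5 and lay 15.4 kb from a peak of E16.5 replicate 1. On chromosome 9, the peak at 24346327 to 24346732 scored 131.4, with E16.5 peaks 38.2 kb away in replicate 1 and 38.5 kb away in replicate 2. The nearest imiquimod peak was 945.9 kb from that site. A second chromosome 11 peak, at 3042364 to 3048875, scored 120.1 (120.05 in the list) and spanned 6512 bp, the widest of all depilation-only sites. On chromosome 13, the peak at 100560835 to 100561097 scored 120.0 (120.03 in the list) and lay 21.6 kb from a peak of E16.5 replicate 1. The peak of 91 bp on chromosome 8 at 64649734 to 64649824 scored 116.0, with its nearest neighbour 61.6 kb away in E16.5 replicate 1. Of the 10 best sites, the chromosome 18 site that scored 180.1 had the closest peak of another list. The chromosome 11 site of 6512 bp came next, at 6.487 kb.

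At the other end, 8 sites shared the lowest scores, 50.01 to 50.04, counting all that tied at the upper value. Their widths were 162 to 249 bp. They lay on 7 autosomes, and their gaps to the nearest peak of another list ran from 422 bp to 306.0 kb. One of them, on chromosome 5 at 54433203 to 54433364, had peaks of all 3 other lists 42.6 to 42.9 kb away.

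Both chromosome 11 sites named above belong to a dense group at the start of that chromosome's sequence. Between 3 and 4 Mb, chromosome 11 held 8 depilation-only sites, the most in any 1 Mb window, beside 3 other depilation peaks. They lay between 3042364 and 3078459, and 6 of them formed a run of 13.3 kb with gaps of no more than 10 kb. That was the longest run, since the other runs were 24 pairs and 2028 depilation-only sites stood alone. The 8 scores were 120.05, 51.89, 181.7, 64.08, 72.04, 50.8, 52.37 and 57.76 in order of position, so 2 of the 8 passed 100. All 6 depilation-only sites wider than 1000 bp lay in this group. The nearest peak of E16.5 replicate 2 was 6.487 to 41.5 kb from these sites, and the nearest imiquimod peak 41.7 to 76.8 kb.

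Sites before 4 Mb, the first stretch of sequence on an mm9 autosome, were 28 of 2082 depilation-only sites, or 1.34% (0.895 to 1.94). They were 18 of 2627 other depilation peaks, or 0.685% (0.407 to 1.08), and 35 of 5539 imiquimod-only sites, or 0.632% (0.441 to 0.878). The E16.5 lists had 0.744% and 0.698% of their peaks there, in replicates 1 and 2. Without chromosome 11 the depilation-only share was 20 of 1980, or 1.01% (0.618 to 1.56). Its interval takes in the other shares, but these still include chromosome 11, so the comparison is not a like one. The excess over the other depilation peaks was not tested, and 8 of the 28 sites lay on chromosome 11.

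Most depilation-only sites were not near misses of the overlap rule. The edge of the nearest peak of another list was a median of 40.03 kb away (interquartile range 16.0 to 81.8 kb, farthest 622.7 kb). A peak of another list lay within 500 bp of 49 sites, or 2.35% (1.75 to 3.10), within 1 kb of 84, or 4.03% (3.23 to 4.97), and within 10 kb of 358, or 17.2% (15.6 to 18.9). It lay within 100 kb of 1675, or 80.5% (78.7 to 82.1). For imiquimod-only sites the median was 54.5 kb, with 1.46% (1.16 to 1.81) within 1 kb and 12.0% (11.1 to 12.9) within 10 kb of a peak of another list. Those sites had fewer other peaks to meet, since the depilation list is the smallest. Its part in the longer gaps was not tested.

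The other depilation peaks had closer neighbours, even when the peaks that overlap them were not counted. Their nearest peak of another list without overlap was a median of 19.6 kb away. For 654 of the 2627, or 24.9% (23.3 to 26.6), it was within 1 kb, and for 997, or 38.0% (36.1 to 39.8), within 10 kb. The rule chose the sites by these same lists, so this difference is in part built in. The 84 depilation-only sites within 1 kb of another list's peak had a median score of 57.9, and the 407 sites more than 100 kb away had 56.5. Median widths were 188 bp and 175 bp. Isolated sites were therefore about as weak and as narrow as those beside a known peak.

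**Figure D3:**
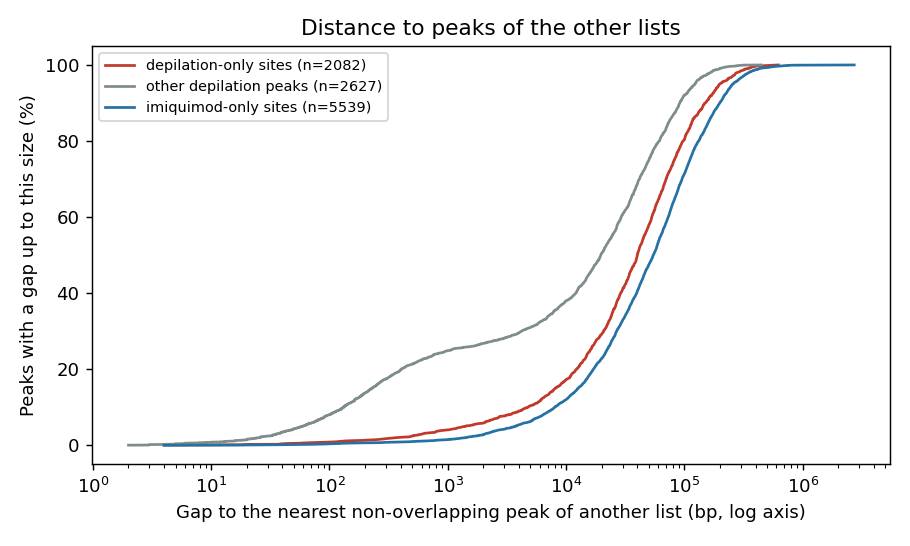
Cumulative share of peaks (y axis, percent) by the gap to the nearest non-overlapping peak of another list (x axis, bp, log scale). Lines are the depilation-only sites (red), the other autosomal depilation peaks (grey) and imiquimod-only sites chosen by the same rule (blue). Within 1 kb lie 4.03% of depilation-only sites, 24.9% of other depilation peaks and 1.46% of imiquimod-only sites.

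The rule's edge fell among weak peaks on both sides, though not only among weak ones. Just inside it, a site on chromosome 15 at 17327944 to 17328132 with a score of 58.7 missed an imiquimod peak by 4 bp. On chromosome 10, the site at 26094467 to 26094671, with a score of 61.4, missed a peak of E16.5 replicate 1 by 10 bp. On chromosome 1, the site at 83286806 to 83286982, with a score of 51.6, missed an imiquimod peak by 19 bp, and a site on chromosome 6 missed a peak of E16.5 replicate 2 by as much. Just outside, a chromosome 4 peak at 53644412 to 53644682 with a score of 58.7 (58.65 in the list) shared 12 bp with a peak of another list. A chromosome 8 peak with a score of 53.7 shared 32 bp, and a chromosome 5 peak with a score of 59.6 shared 36 bp. Only these 3 of the 2627 other depilation peaks had a largest overlap under 50 bp. Stronger peaks also lay near the edge. A chromosome 11 site scoring 101.5 missed a peak of another list by 60 bp, and a chromosome 3 peak scoring 97.0 shared 64 bp.

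The farthest sites lay on chromosomes 14, 15 and 7. The site on chromosome 14 at 10347643 to 10347819 scored 56.3 and was 622.7 kb from the nearest peak of another list. The site on chromosome 15 at 5657491 to 5657687 scored 53.7 and was 563.1 kb away. The site on chromosome 7 at 57797147 to 57797327 scored 55.2 and was 542.5 kb away. All 3 were of ordinary width, 177, 197 and 181 bp. In each case the nearest list was E16.5 replicate 1.

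The nearest peak of another list came most often from E16.5 replicate 1, the largest of the 3, and more often from imiquimod than from the larger list of E16.5 replicate 2. The nearest peak came from the imiquimod list for 660 sites (31.7%), from E16.5 replicate 1 for 892 (42.8%) and from E16.5 replicate 2 for 530 (25.5%). The imiquimod list holds 27.2% of the peaks of the 3 lists, E16.5 replicate 1 holds 39.7% and E16.5 replicate 2 holds 33.1%. The counts and these shares do not show that imiquimod peaks lay closer than those of replicate 2. Where both E16.5 replicates have a peak at the same place, only 1 of them is counted as nearest. Gaps run from edge to edge, and replicate 1 has the wider peaks (median width 445 bp, replicate 2 232 bp). The part of this in the counts was not tested. Within 1 kb the counts were 34 sites for imiquimod, 47 for E16.5 replicate 1 and 35 for E16.5 replicate 2. Taken list by list, the median gap was longest to imiquimod, at 104.2 kb. It was 92.5 kb to E16.5 replicate 1 and 101.5 kb to E16.5 replicate 2.

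Depilation-only sites also seldom lay beside each other or beside other depilation peaks. Another depilation-only site lay within 1 kb of 16 of them, or 0.768% (0.440 to 1.24), and within 10 kb of 54, or 2.59% (1.95 to 3.37). A depilation peak of the rest lay within 10 kb of 43, or 2.07% (1.5 to 2.77). Among the other depilation peaks, 517 had another of their own kind within 1 kb, or 19.7% (18.2 to 21.3), and 574 within 10 kb, or 21.9% (20.3 to 23.5). Depilation-only sites were thus mostly single peaks, with no second depilation peak close by.

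The surroundings of the sites held fewer peaks. Within 500 kb on either side, a depilation-only site had a median of 10 non-overlapping peaks of the 3 other lists (interquartile range 6 to 15). The other depilation peaks had a median of 17 (11 to 23.5). In the score band from 50 to under 55 the medians were 10 and 17, and from 80 to under 100 they were 11.5 and 17, so the gap in numbers was present in both weak and strong peaks. The median for depilation-only sites was below that for other depilation peaks on 19 of 19 autosomes, which come from the same libraries and are not replicates. Imiquimod-only sites had a median of 8 and other imiquimod peaks 15. A few depilation-only sites, 3 in all, had no peak of another list within 500 kb. Peaks along a chromosome are not independent, and no test was made of these differences. The neighbours were also counted from the lists that the rule used to choose the sites, so the differences are in part built in.

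The density of depilation-only sites differed little between autosomes. Their density was lowest on chromosome 9, at 0.735 per Mb (89 sites, exact Poisson interval 0.590 to 0.905), and highest on chromosome 3, at 0.983 per Mb (153 sites, 0.834 to 1.15), a ratio of 1.34. The density of the other depilation peaks lay between 0.726 per Mb on chromosome 16 and 1.74 per Mb on chromosome 11, a ratio of 2.40. In each of the 4 lists the peaks found in no other list were the more even ones. Their ratio of highest to lowest density was 1.49 for imiquimod, 1.53 for E16.5 replicate 1 and 1.65 for E16.5 replicate 2, against 2.48, 2.45 and 2.38 for the shared peaks of the same lists. The ratio of 1.34 for depilation-only sites was the smallest of the 8, and the intervals of its lowest and highest density overlap. In all 4 lists the rule sorts peaks by whether they meet another list. The contrast between shared and unshared peaks is therefore in part built in.

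The density of depilation-only sites did not follow that of the other lists. Across the 19 autosomes, the peaks of the 3 other lists per Mb ranged from 9.52 to 15.7. Spearman's rho with this density was -0.04 for depilation-only sites per Mb and 0.92 for the other depilation peaks per Mb. The points share the same 4 libraries and the same chromosome spans. Both values are in part set by the rule, since a peak of the rest must meet a peak of another list and a depilation-only site must not. The coefficients are given as a description over 19 points.

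The share of depilation peaks that were depilation-only therefore differed between chromosomes. It was 33.0% (27.8 to 38.6) on chromosome 11, 35.9% (29.9 to 42.2) on chromosome 9 and 36.1% (30.9 to 41.6) on chromosome 5. It was 56.3% (48.2 to 64.2) on chromosome 16, 56.0% (49.9 to 62.0) on chromosome 3 and 53.2% (47.3 to 58.9) on chromosome 1. Chromosomes 11 and 16 had close densities of depilation-only sites, 0.859 and 0.936 per Mb. They differed in the other depilation peaks, 1.74 and 0.726 per Mb. Across autosomes the share had a Spearman's rho of -0.84 with the density of the other lists, which the rule also sets in part.

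**Figure D4:**
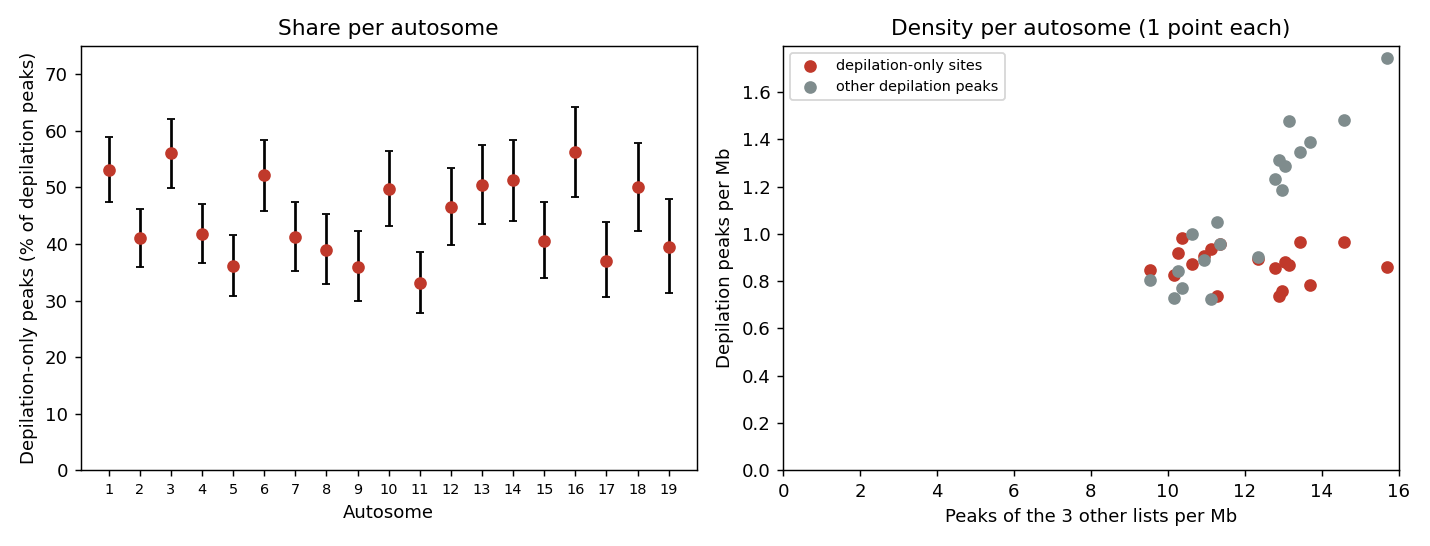
Left, share of depilation peaks that were depilation-only on each autosome (y axis, percent), with exact 95% binomial intervals. Right, depilation-only sites (red) and other depilation peaks (grey) per Mb of each autosome (y axis) against the peaks of the 3 other lists per Mb (x axis). Red points stay between 0.735 and 0.983 per Mb, and grey points run to 1.74 per Mb.

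In windows of 1 Mb the sites were thinly spread. They fell in 1375 windows, of which 861 held a single site. The other depilation peaks fell in 1202 windows, of which 547 held a single peak, and their densest window held 12. Besides the window on chromosome 11 with 8 sites, 5 windows held 5 depilation-only sites. They were at 61 to 62 Mb on chromosome 7, at 60 to 61 Mb on chromosome 1, at 41 to 42 Mb on chromosome 11, at 47 to 48 Mb on chromosome 7 and at 109 to 110 Mb on chromosome 14. No other depilation peak lay in 4 of the 6 windows with 5 or more sites. The best score among the sites was 88.1 in the first of these windows and 60.2 in the last.

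Imiquimod-only sites, chosen by the same rule, had a like profile within their own list. Their median score was 63.9, against 100.1 for the other autosomal imiquimod peaks, and their median width 243 bp, against 362 bp. This list also gives the authors' tag counts, with a median of 25 tags in imiquimod-only sites and 43 in the other imiquimod peaks. The authors' fold enrichment had medians of 6.73 and 6.48. How tags and enrichment relate from peak to peak was not tested. The median false discovery rate was 5.95% and 4.21%. The depilation list gives neither tags nor enrichment, and whether the same holds for depilation-only sites cannot be read from it. Scores of the lists are not on a scale known to be shared, so the depilation-only and imiquimod-only medians are not compared.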

How the data were processed

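Grhl3 ChIP-seq peak lists of 4 libraries were used, 1 list per library. The submitters' processing notes name the mm9 build, bedtools 2.11.2 and Bowtie 0.12.7. How peaks were called, and how the 2 input libraries entered, is not stated there. The depilation and E16.5 lists, as deposited, give a position and a peak score, with names that begin with MACS. Per the file headers, the imiquimod list gives the authors' count of tags per peak, a fold enrichment (a ratio over background) and, in percent, a false discovery rate. Its score column has no readable name in the deposited list.

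BED starts were raised by 1. Overlaps, edge-to-edge gaps and densities over the span covered by peaks of any list were computed in pandas 2.3.3, numpy 2.4.6 and scipy 1.17.1 under Python 3.11.15. On simulated lists, 20000 of 20000 planted gaps and overlaps were recovered, and bedtools 2.31.1 gave the same 2082 sites. Intervals are exact (Clopper-Pearson, or Poisson for densities), cover counting error alone and take each peak as independent of its neighbours. No test was run, since presence in the lists chose the sites and each adult condition has 1 library. Named are the 10 best scoring sites, the 3 nearest to and the 3 farthest from another list, and the densest window and run. Sites on chromosome 18 are given without positions. The rule also took the 5 lowest scoring sites (8 with ties), which are summarised together, with 1 given by position. The sites and this rule were chosen with earlier results of these data known. Genes and sequences were not used here, because the reference tables are of another build (GRCm38) than the lists. Alternatives are given in the closing section.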

Additional observations from a re-analysis of the deposited data

Results flagged for a closer look

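Depilation peaks outside the rule also included peaks found in no other list, a signal in data that the comparisons above leave out. On chromosome X, 35 of 57 depilation peaks were overlapped by no peak of the other lists, or 61.4% (exact 95% binomial interval 47.6 to 74.0), with a median score of 55.3 and a highest score of 87.8. In the window left out on chromosome 9, 22 of 40 depilation peaks were, or 55% (38.5 to 70.7), with a median score of 107.3 and a highest score of 299.97. The X peaks were thus as weak as the autosomal depilation-only sites, and those of the window scored higher. On chromosome Y 1 of 14 depilation peaks was in no other list.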

How the results depend on the processing

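Each of 6 results was recomputed under 8 alternatives, of which leaving out the imiquimod list was chosen after seeing the data. Without 1 or the other E16.5 replicate, the number of depilation-only sites was 2189 to 2616, their share of autosomal depilation peaks 46.5 to 55.6%, their median score 56.3 to 57.3 and their median width 177 to 182 bp. The share within 10 kb of another list's peak was then 14.1 to 17.4%, and within 10 kb of another depilation-only site 2.88 to 5.05%. The higher count came without replicate 1, the larger list. With depilation peaks scoring 100 or more, 23 sites remained, 4.87% of such peaks, with a median score of 112.6 and a median width of 263 bp. Of these, 21.7% lay within 10 kb of another list's peak and 0 (0%) within 10 kb of each other. That 0 of 23 allows a share of up to 13.0% as 3 counts of 23, and the exact interval reaches 14.8%. The share within 10 kb of another list's peak was 15.2% when peaks within 500 bp counted as shared, 14.2% with imiquimod peaks at a false discovery rate of 5% or less, and 13.0% without the imiquimod list. These alternatives remove near peaks or whole lists by construction. With the chromosome 9 window kept in, 3.61% of sites lay within 10 kb of each other. The other values stayed within the interval of the reported one, or, for the count, within 1.5 times of it. Motif and gene alternatives were not run, since no genome of the lists' build was used. No paired analysis was possible because the adult conditions have 1 library each. Unknown depth limits every absence from a list.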
